A study of Arabidopsis thaliana with 12 samples.

Results

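The evening clock and photoperiod genes of Arabidopsis thaliana were followed in seedlings that carry the mutant alleles brm-1 and ref6-1 of the chromatin regulators BRM and REF6, alone or combined. The 9 genes, TOC1, ELF3, ELF4, LUX, GI, PRR5, PRR3, FKF1 and ZTL, were taken by locus from a deposited table of read counts for 29420 loci, and all 9 were among the 22076 genes with enough counts to be tested. The table holds 12 RNA-seq libraries of 14-day-old seedlings grown on agar medium in long days, 3 each of wild type (WT), of the single mutants brm-1 and ref6-1 and of their combination brm-1 ref6-1, with no other treatment. The labels name the alleles and give neither their lesions nor the background accession. The protocol also says that RNA of biological replicates was pooled, so the spread between libraries may hold less than the spread between separate sets of plants. The labels give no hour of harvest, so for genes with a daily rhythm a change in level and a shift in phase cannot be told apart. These are whole seedlings, in which fewer cells of a type and less RNA per cell cannot be told apart either.

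BRM drives a remodelling complex of the SWI/SNF type that moves nucleosomes, and REF6 is a demethylase that removes the repressive mark H3K27me3 from histones. The plant clock is a loop of repressors: the morning factors CCA1 and LHY repress evening genes, and pseudo-response regulators are expressed in turn through the day. Among the genes described here, TOC1 and PRR5 repress CCA1 and LHY. ELF3, ELF4 and LUX form the evening complex, a night-time repressor of transcription, while GI, FKF1 and ZTL link light to protein degradation and, through the floral activator CO, to flowering in long days.

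Library totals ranged from 10119148 to 11860892 counts. The brm-1 label held in the counts of BRM itself, with 43, 50 and 74 counts in the brm-1 libraries and 2998 to 3282 in WT. In brm-1 ref6-1 the counts of BRM were 60, 35 and 438, so replicate 3 of that genotype stood at 14.7% of the WT level. The calls among the evening genes in that genotype against WT are given with and without it. Other values of that genotype include it unless stated otherwise. REF6 had 874 to 892 counts in ref6-1 and 908 to 1116 in WT, so that its counts do not check the ref6-1 label. Leaf markers, 5 of 5 detected, summed to 565 to 643 CPM over the 12 libraries and root markers, 6 of 6 detected, to 183 to 242 CPM. Of the leaf markers 3 rose in brm-1, none passed in ref6-1 and 1 rose in brm-1 ref6-1 (edgeR), with log2 differences in brm-1 of 0.31 for LHCB3, 0.25 for LHCA1 and 0.18 for LHCB1.2, and of 0.20 for LHCB3 in brm-1 ref6-1. Of the root markers WOX5 rose in brm-1 and brm-1 ref6-1, by 0.92 and 1.09, and EXPA7 fell in ref6-1 by 0.54. Beside these and the counts that follow, 8.88% of all tested genes rose in brm-1, 2.33% in ref6-1 and 14% in brm-1 ref6-1. The 5 flower markers, all detected in every genotype, summed to 16.6 ± 2.28 CPM (SD, n = 3) for WT, 60.6 ± 4.58 for brm-1, 37.4 ± 1.76 for ref6-1 and 82.7 ± 6.08 for brm-1 ref6-1, and 2, 2 and 3 of the 4 tested rose in the mutants. The 4 seed storage markers summed to 0.566 ± 0.237 CPM for WT, 13.6 ± 11.03 for brm-1, 1.31 ± 0.711 for ref6-1 and 36.1 ± 13.3 for brm-1 ref6-1, and 3, 0 and 3 of the 3 tested rose, while SESA3 was at 0 outside brm-1 ref6-1. The part of these other tissues in the values below was not tested.

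The DNA upstream of the 9 genes was searched for the evening element, AAAATATCT, the word that CCA1 and related morning factors bind in evening-phased promoters, because it is the sequence feature by which this gene group is best known. Windows of 500 bases before the annotated start (RefSeq annotation of TAIR10.1) were read on both strands. The element was present in 4 of the 9 windows and in 4.438% of the 27443 windows of protein-coding genes that were searched. TOC1 and LUX held 1 copy each and PRR5 and FKF1 held 2 each, while none of the 10 morning clock genes held any. The stretches that hold it are shown 5′ to 3′ on the strand of the gene, in lower case with the element in capitals, and AGATATTTT is its reverse complement. They lie at chr5:24674772-24674860, plus strand for TOC1, chr3:17182949-17183037, plus strand for LUX and chr1:25508226-25508501, plus strand for FKF1. For PRR5, whose model begins at the start codon, only each copy with 10 bases on both sides is shown, at chr5:8358820-8358848, minus strand, and chr5:8358715-8358743, minus strand.
TOC1: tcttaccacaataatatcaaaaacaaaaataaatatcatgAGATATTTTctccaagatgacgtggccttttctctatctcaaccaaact
LUX: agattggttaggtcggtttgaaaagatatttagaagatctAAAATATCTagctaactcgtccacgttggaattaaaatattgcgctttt
FKF1: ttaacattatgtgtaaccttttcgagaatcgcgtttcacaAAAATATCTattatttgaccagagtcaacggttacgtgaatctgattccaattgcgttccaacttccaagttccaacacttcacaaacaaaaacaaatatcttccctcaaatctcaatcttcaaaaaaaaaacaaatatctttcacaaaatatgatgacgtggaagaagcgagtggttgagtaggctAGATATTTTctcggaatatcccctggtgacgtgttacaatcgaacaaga
PRR5 distal copy: caattctactAGATATTTTttcaaatcca
PRR5 proximal copy: gattttttctAGATATTTTcttttctcca

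Other words were searched in the same windows. The LUX-binding words GATACG and GATTCG occurred upstream of TOC1, ELF3, ELF4 and LUX, 4 of 9 against 22.596% of all windows. They were also found in 4 of the 10 morning windows, so they do not set the evening genes apart from these. A G-box, CACGTG, was found upstream of LUX, 1 of 9 against 9.347%, and in 5 of the 10 morning windows. The CCA1-binding word AAAAATCT was found upstream of PRR5, 1 of 9 against 12.48%, and in 3 of the 10 morning windows. None of the 4 words of the motif that REF6 binds, CTCTGTTT, CTCTGTTC, CTCTGCTT and CTCTGCTC, was found in the 9 windows, and 11.347% of all windows held at least 1. The morning windows held it in 1 of 10. At that share nothing is read from the absence in the 9, and the gene bodies were not searched. The longer words contain none of the shorter ones, and a match is a string of letters, not a measured binding site.

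In counts, the evening genes lay close to their WT level in all 3 mutant genotypes. Differences in this table were smaller where genes had more counts per kb, as described further on, and how far counts of such genes follow the amount of RNA was not tested. In the 27 comparisons of a gene with WT (9 genes in 3 genotypes) the log2 differences ran from -0.22 to 0.12, and the outermost bounds of the 95% intervals were -19.3% and 17.04%. The median over the 9 genes was -0.02 in brm-1, 0.01 in ref6-1 and 0.05 in brm-1 ref6-1, beside medians of -0.00, 0.00 and 0.00 over all genes tested. What did pass were small falls of the pseudo-response regulators PRR5 and PRR3, a small fall of GI in brm-1 ref6-1 and a small rise of FKF1 in brm-1. The 3 comparisons share the WT libraries.

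The calls among the evening genes are set here beside those among all genes. In brm-1, 3 of the 9 passed, 1 up and 2 down, where 19% of all tested genes passed (8.88% rose and 10.1% fell). In ref6-1 none passed with edgeR, where 7.95% of genes did (2.33% rose and 5.63% fell), and 1 of the 9 had an unadjusted p under 0.05. The share of all genes under that unadjusted cut was not counted, so nothing is read from that 1. DESeq2 called none in ref6-1 and limma-voom called 1. In brm-1 ref6-1, 3 of the 9 passed, all down, where 31.2% of genes did (14% rose and 17.3% fell). The count in brm-1 ref6-1 is near the background share, and nothing particular to the evening genes is read from it or from the count in brm-1. Libraries of mutant and WT did not overlap for 3 of the 9 in brm-1, where this held for 36% of all tested genes, and for 3 in ref6-1, where it held for 30.2%. In brm-1 ref6-1 it held for 6, against 46.5% of all genes, with ELF3, ELF4 and LUX above WT (22.7% of genes lay above) and GI, PRR5 and PRR3 below it (23.8%). Nothing particular to the evening genes is read from these counts.

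**Figure D1:**
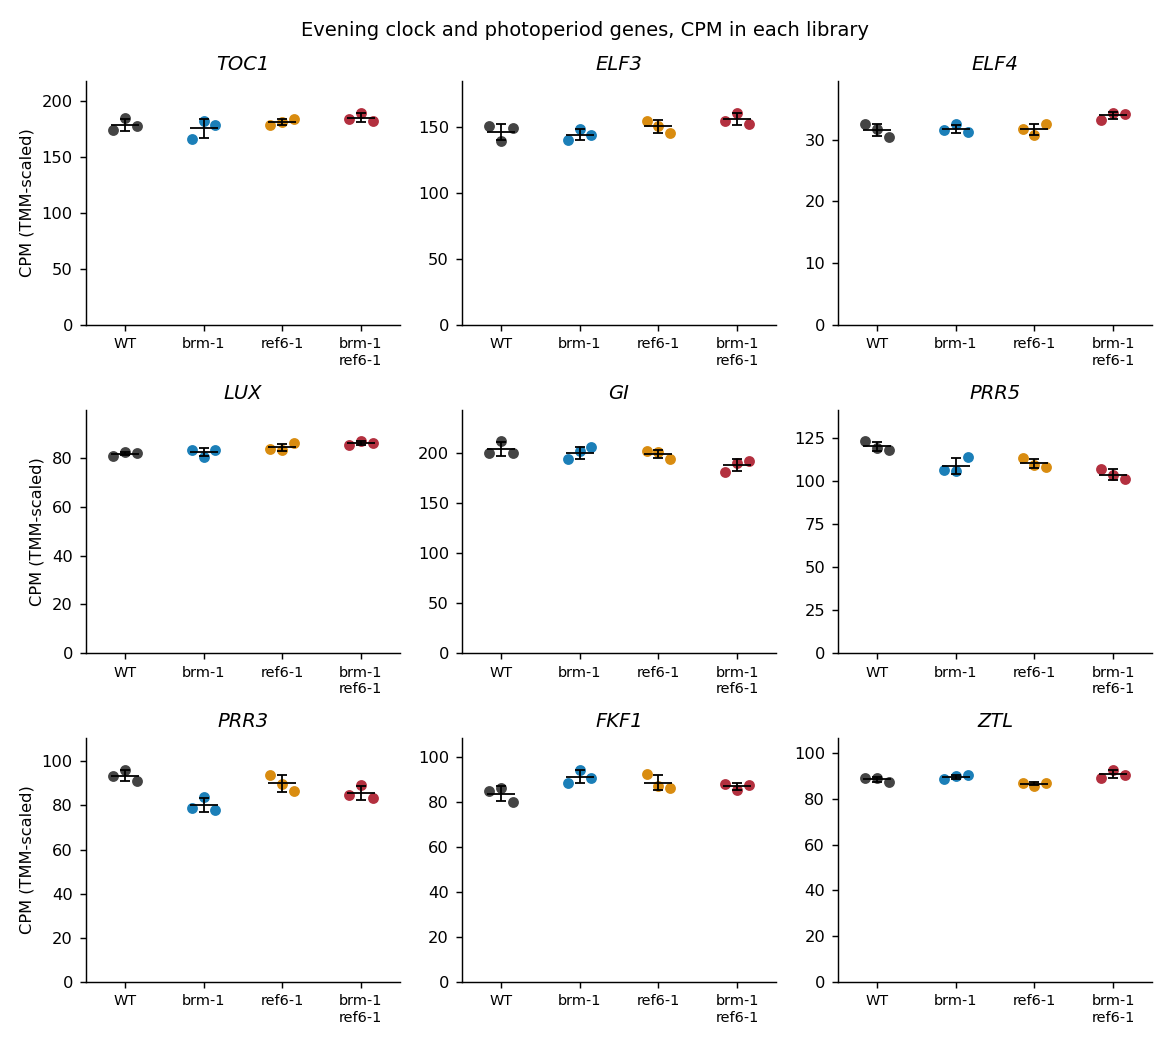
Counts scaled to a common library size by TMM (CPM; axis from 0) of the 9 evening genes in each of the 12 libraries, by genotype; points are libraries, horizontal lines group means and bars the SD of 3 libraries. PRR5 sits at 118 to 123 CPM in WT and at 101 to 114 in all 9 mutant libraries, whereas TOC1 lies between 166 and 189.7 in every genotype.

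No gene of the evening complex passed the test against WT in any mutant. ELF3 (AT2G25930, chr2:11058944-11063324, plus strand), the scaffold of the complex, stood at 150.7, 139.5 and 149.4 CPM in the WT libraries, 140.5, 148.8 and 143.8 in those of brm-1, 155.1, 151.1 and 145.7 in those of ref6-1 and 155.0, 160.9 and 152.5 in those of brm-1 ref6-1. The brm-1 and ref6-1 libraries overlapped WT and the brm-1 ref6-1 libraries all lay above it, yet that difference of 0.09 ± 0.04 (log2, SE) missed the threshold (edgeR, adjusted p = 0.0793). The annotated span of ELF3 shares 24 bases with that of ALPHA-VPE and 183 bases with that of an antisense RNA, and whether the counting used strand is not given in the sources used here.

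ELF4 (AT2G40080, chr2:16734294-16734953, minus strand), the small partner of ELF3, had 32.6, 31.7 and 30.5 CPM in the WT libraries, 31.5, 32.5 and 31.3 in those of brm-1, 31.7, 30.8 and 32.6 in those of ref6-1 and 33.2, 34.4 and 34.2 in those of brm-1 ref6-1. Here too only brm-1 ref6-1 lay above every WT library, by a log2 difference of 0.10 ± 0.06 that did not pass (edgeR, adjusted p = 0.199). LUX (AT3G46640, chr3:17183042-17186959, plus strand), the DNA-binding subunit, gave 80.9, 82.3 and 82.0 CPM in the WT libraries, 83.3, 80.4 and 83.3 in those of brm-1, 83.7, 83.3 and 86.0 in those of ref6-1 and 85.2, 86.8 and 86.0 in those of brm-1 ref6-1. The ref6-1 and brm-1 ref6-1 libraries of LUX lay above WT without overlap, with differences of 0.05 ± 0.04 and 0.07 ± 0.04 (edgeR, adjusted p = 0.506 and 0.139). LUX shares 1507 bases with AT3G46650 on the opposite strand, a gene with a mean of 179 counts beside 912 for LUX, and without strand the reads of the shared stretch cannot be told apart. ELF4, LUX and also ZTL varied less between replicates than counting noise alone would give, with chi-square values per degree of freedom of 0.233, 0.200 and 0.165, where TOC1 had 2.04 and GI 1.95.

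TOC1 (AT5G61380, chr5:24674963-24678550, plus strand), the pseudo-response regulator that represses CCA1 and LHY, had 174.2, 184.9 and 177.6 CPM in the WT libraries, 165.9, 182.7 and 178.8 in those of brm-1, 179.0, 181.1 and 184.0 in those of ref6-1 and 184.1, 189.7 and 182.3 in those of brm-1 ref6-1. Every mutant group overlapped WT, and the differences of -0.03 ± 0.04, 0.02 ± 0.04 and 0.05 ± 0.04 did not pass (edgeR, adjusted p = 0.691, 0.793 and 0.306). The interval for brm-1 ref6-1 ran from -1.82% to 9.36%.

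PRR5 (AT5G24470, chr5:8356204-8358546, minus strand), a repressor of CCA1 and LHY from midday to evening, was the member that fell furthest in brm-1 ref6-1. It stood at 123.1, 119.1 and 118.1 CPM in the WT libraries, 106.6, 105.6 and 114.2 in those of brm-1, 113.2, 109.6 and 108.0 in those of ref6-1 and 107.0, 103.3 and 101.0 in those of brm-1 ref6-1. All 9 mutant libraries lay below all 3 WT libraries. The log2 difference was -0.14 ± 0.04 in brm-1 (-9.50%) (edgeR, adjusted p = 0.0134), and -0.21 ± 0.04 in brm-1 ref6-1 (-13.6%) (edgeR, adjusted p = 0.000965). In ref6-1 it was -0.12 ± 0.04 and just missed the threshold (edgeR, adjusted p = 0.0516). The brm-1 ref6-1 call held without replicate 3 (-0.19, edgeR adjusted p = 0.00488) and under all 20 alternative settings. The brm-1 call was lost without WT replicate 1 (-0.13, adjusted p = 0.0615), without brm-1 replicate 2 (-0.12, adjusted p = 0.0776) and with DESeq2 (adjusted p = 0.0524). The ref6-1 difference passed without brm-1 replicate 3 (adjusted p = 0.0323), without brm-1 ref6-1 replicate 1 (0.0477), with limma-voom (0.0487) and with only these groups in the fit (0.0427).

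PRR3 (AT5G60100, chr5:24197971-24201415, minus strand), whose protein shields TOC1 from degradation in vascular tissue, fell most in brm-1. Its levels were 93.3, 96.2 and 91.0 CPM in the WT libraries, 78.8, 83.9 and 78.1 in those of brm-1, 93.8, 89.8 and 86.4 in those of ref6-1 and 84.6, 89.3 and 83.3 in those of brm-1 ref6-1. The brm-1 and brm-1 ref6-1 libraries lay below WT without overlap, and the ref6-1 libraries overlapped it. In brm-1 the difference was -0.22 ± 0.04 (-14.1%) (edgeR, adjusted p = 0.00294), which passed under all 20 alternatives. In brm-1 ref6-1 it was -0.13 ± 0.04 (-8.33%) (edgeR, adjusted p = 0.0366), and in ref6-1 -0.05 ± 0.04 (edgeR, adjusted p = 0.468). The brm-1 ref6-1 call was lost without replicate 3 of that genotype (-0.11, adjusted p = 0.114) or replicate 1 (-0.12, 0.101). It was lost as well without WT replicate 1 (-0.13, 0.0768), WT replicate 2 (-0.10, 0.120) or ref6-1 replicate 2 (-0.12, 0.0600), with DESeq2 (0.138) and with upper-quartile scaling (0.0576).

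GI (AT1G22770, chr1:8061751-8067790, plus strand), the large nuclear and cytosolic protein that stabilises ZTL and works with FKF1 on the activation of CO, had 199.3, 211.4 and 200.2 CPM in the WT libraries, 193.4, 201.6 and 205.3 in those of brm-1, 202.1, 200.3 and 193.8 in those of ref6-1 and 180.5, 190.1 and 192.2 in those of brm-1 ref6-1. Only the brm-1 ref6-1 libraries lay below every WT library. They differed by -0.12 ± 0.03 (-7.84%) (edgeR, adjusted p = 0.0205), and by -0.14 without replicate 3 (edgeR, adjusted p = 0.0207). That call was lost without WT replicate 2 (-0.09, adjusted p = 0.0853) and without brm-1 ref6-1 replicate 1 (-0.09, adjusted p = 0.0922). The differences of -0.03 ± 0.03 in brm-1 and -0.03 ± 0.03 in ref6-1 did not pass (edgeR, adjusted p = 0.674 and 0.592).

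FKF1 (AT1G68050, chr1:25508639-25510907, plus strand), a blue-light receptor and F-box protein that marks the CDF repressors of CO for degradation, was the member that rose. It had 85.1, 86.5 and 80.1 CPM in the WT libraries, 88.8, 94.5 and 90.9 in those of brm-1, 92.7, 87.3 and 86.3 in those of ref6-1 and 88.0, 85.4 and 87.8 in those of brm-1 ref6-1. The brm-1 libraries lay above WT, and the other groups overlapped it. In brm-1 the difference was 0.12 ± 0.04, a rise of 8.90% (edgeR, adjusted p = 0.0437), in ref6-1 0.08 ± 0.04 (0.230) and in brm-1 ref6-1 0.05 ± 0.04 (0.331). This rise is the least stable of the calls, lost under 10 of 20 alternatives. Leaving out 1 library ended it for WT replicate 1 or 3 (adjusted p = 0.0803 and 0.163), for brm-1 replicate 2 or 3 (0.168 and 0.0912), for ref6-1 replicate 2 (0.0570) and for brm-1 ref6-1 replicate 1, 2 or 3 (0.0542, 0.0533 and 0.0570). DESeq2 (0.176) and a fit of these groups alone (0.0633) also ended it. FKF1 shares 21 bases with MAP70-1 on the opposite strand.

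ZTL (AT5G57360, chr5:23241320-23244590, plus strand), the related F-box protein that targets TOC1 and PRR5 for degradation, had 89.4, 89.1 and 87.5 CPM in the WT libraries, 88.7, 90.1 and 90.3 in those of brm-1, 87.0, 85.8 and 87.0 in those of ref6-1 and 89.2, 92.8 and 90.5 in those of brm-1 ref6-1. The ref6-1 libraries lay just below WT and the other groups overlapped it. None of its differences, 0.02 ± 0.04, -0.03 ± 0.04 and 0.03 ± 0.04, passed (edgeR, adjusted p = 0.824, 0.637 and 0.512).

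**Figure D2:**
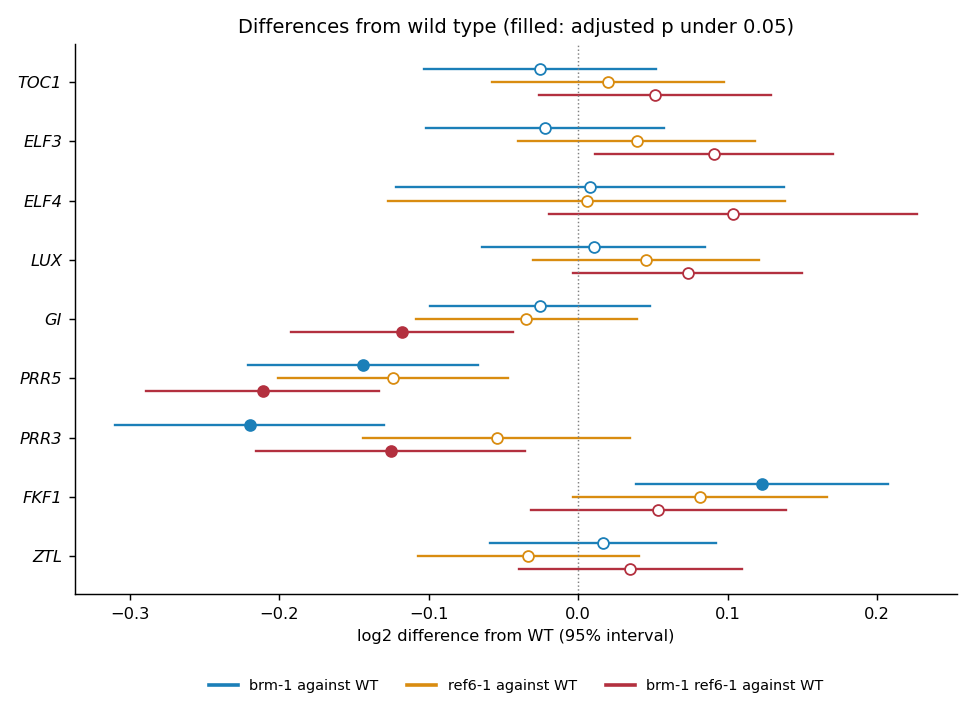
Log2 difference from WT of each evening gene in brm-1, in ref6-1 and in brm-1 ref6-1, with 95% intervals (bars); filled circles passed edgeR's test at an adjusted p under 0.05 and open circles did not. The 6 filled points are PRR5, PRR3 and FKF1 in brm-1 and GI, PRR5 and PRR3 in brm-1 ref6-1, and all lie within 0.22 of 0.

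The mutants also differed little from each other in these genes. PRR3 was lower in brm-1 than in ref6-1 by 0.17 ± 0.04 on the log2 scale (edgeR, adjusted p = 0.0174), the only 1 of 9 to pass where 16.1% of genes did, and 7.47% were lower in brm-1. That call was lost without brm-1 replicate 1 or 3 (adjusted p = 0.0607 and 0.0649), without ref6-1 replicate 1 or 2 (0.0743 and 0.0507) and with DESeq2 (0.0606). Between brm-1 ref6-1 and brm-1 none of the 9 passed with edgeR, DESeq2 or limma-voom, where 4.38% of genes passed with edgeR, and 3 had an unadjusted p under 0.05. Between brm-1 ref6-1 and ref6-1 again none passed with any of the 3 tools, where 11.9% of genes passed with edgeR, and 2 had an unadjusted p under 0.05. The shares of all genes under that unadjusted cut were not counted, so nothing is read from the 3 and the 2. The nearest to the threshold was ELF3, higher in brm-1 ref6-1 than in brm-1 by 0.11 ± 0.04 (edgeR, adjusted p = 0.110). For PRR5 the interval of that difference ran from -9.63% to 0.806%.

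Whether the effects of the alleles add up was tested as an interaction, the change that ref6-1 made in brm-1 less the change it made in WT. None of the 9 genes passed with edgeR, DESeq2 or limma-voom, where 0.245% of genes passed with edgeR. With an unadjusted p under 0.05 there were 2, PRR3 at 0.15 ± 0.06 and FKF1 at -0.15 ± 0.06 (edgeR, adjusted p = 0.403 and 0.358). The share of all genes under that unadjusted cut was not counted, so nothing is read from the 2. For PRR3 the fall of 0.22 in brm-1 stood beside -0.05 in ref6-1 and -0.13 in brm-1 ref6-1, and for FKF1 0.12 and 0.08 stood beside 0.05. The intervals still span a wide range for such small differences, for PRR3 from 0.02 to 0.28 and for FKF1 from -0.27 to -0.03 on the log2 scale before adjustment.

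Levels were compared between genes per kilobase of annotated exons. In WT the order was PRR5 at 71.6 ± 1.58 CPM per kb (SD, n = 3), TOC1 at 63.7 ± 1.94, ELF3 at 53.3 ± 2.23, ELF4 at 51.0 ± 1.68, GI at 47.3 ± 1.57, FKF1 at 38.7 ± 1.54, ZTL at 36.3 ± 0.428, PRR3 at 33.3 ± 0.930 and LUX at 20.9 ± 0.198. All neighbours in this order had separate libraries except ELF3 and ELF4. The model of PRR5 holds 1677 bases of coding length and no UTR, so its level per kb is not comparable with the others and its place in the order is not secure. With the longest transcript of LUX in place of all its exons, its level was 25.2, still the lowest. In brm-1 ref6-1 TOC1, at 66.0 ± 1.39, stood above PRR5, at 61.9 ± 1.80, while in brm-1 and ref6-1 their libraries overlapped.

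**Figure D3:**
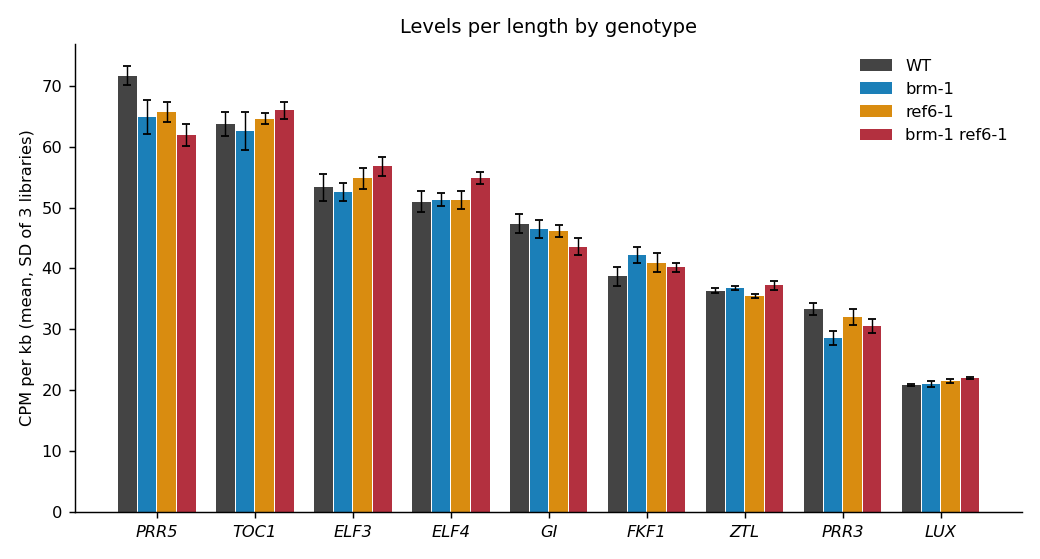
CPM per kb of annotated exons of the 9 evening genes in each genotype, in the order of their WT level; bars are means from 0 and error bars the SD of 3 libraries. PRR5 leads TOC1 in WT (71.6 against 63.7) and follows it in brm-1 ref6-1 (61.9 against 66.0), and the lower ranks keep their order.

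Most of the evening genes are densely counted, and in this table dense counts went with small differences. Their counts per kb, averaged over the 12 libraries, were 722 for PRR5, 700 for TOC1, 593 for ELF3, 568 for ELF4, 501 for GI, 442 for FKF1, 398 for ZTL, 340 for PRR3 and 233 for LUX, where the median of all tested genes was 228, the 99th percentile 766 and the level that 0.1% of genes exceeded 1021. RBCS1A, a Rubisco subunit and normally among the most abundant leaf messages, had 976. In brm-1 ref6-1 against WT the SD of the log2 difference over genes was 1.16 under 100 counts per kb, 0.495 from 100 to 200, 0.284 from 200 to 400, 0.156 from 400 to 600 and 0.128 at 600 and over. The share of genes with at least a 2-fold difference went from 22.9% to 5.62%, 1.41%, 0.145% and 0% over the same bins, while the share passing the test stayed between 28.6% and 32.3%. In the single mutants that share was lower at high density: from under 100 to 600 and over it went from 20.9% to 14.6% in brm-1 and from 9.73% to 2.89% in ref6-1, so for the dense members the background of ref6-1 is below 7.95%. Against genes of the same density, the difference of -0.21 for PRR5 in brm-1 ref6-1 lay below the 5th percentile of -0.19. Its differences of -0.144 in brm-1 and -0.124 in ref6-1 lay just below theirs, of -0.139 and -0.119. The PRR5 model holds coding length only, so its bin is not secure. From 400 to 600 counts per kb the 5th percentiles were -0.185 in brm-1, -0.192 in ref6-1 and -0.262 in brm-1 ref6-1. PRR5 would not stand out there. The difference of GI in brm-1 ref6-1 (-0.12, from -0.26 to 0.21 for the middle 90%) did not stand out. In brm-1, PRR3 at -0.22 lay within -0.33 to 0.26. Duplicate handling is not given in the sources used here, and whether counts at high density are capped, and differences there compressed, was not tested.

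**Figure D4:**
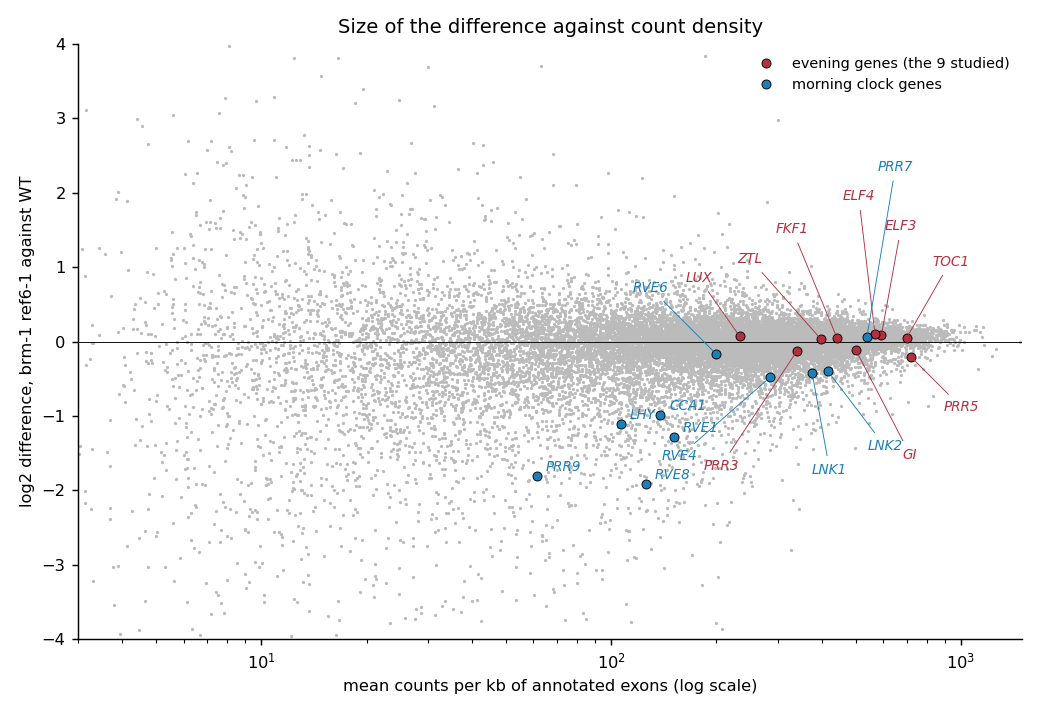
Log2 difference of brm-1 ref6-1 from WT against the mean counts per kb of annotated exons (log axis) for all tested genes with a length (grey points; differences beyond 4 and densities under 3 are not drawn), with the 9 evening genes in red and the 10 morning clock genes in blue. The grey cloud narrows to the right, from an SD of 1.16 under 100 counts per kb to 0.128 at 600 and over, and 6 of the evening genes lie above 400 counts per kb.

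The morning side of the clock is set beside the evening genes. Of 10 morning genes, 5 fell in brm-1, 7 in ref6-1 and 8 in brm-1 ref6-1 and none rose, with median log2 differences of -0.46, -0.65 and -0.74, and the count of 8 held without replicate 3 of brm-1 ref6-1. Of all tested genes, 10.1% fell in brm-1, 5.63% in ref6-1 and 17.3% in brm-1 ref6-1. RVE8, a morning activator of evening genes, stood at 52.7 ± 6.31 CPM in WT (SD, n = 3), against 23.4 ± 1.63 for brm-1, 16.7 ± 2.83 for ref6-1 and 14.0 ± 1.81 for brm-1 ref6-1. Its log2 differences from WT were -1.17, -1.66 and -1.92 (edgeR, adjusted p = 5.79e-05, 1.14e-05 and 1.95e-06). Falls were also found for RVE1, a factor that joins clock and auxin, at -1.21, -1.01 and -1.28, for PRR9, the earliest pseudo-response regulator, at -0.80, -1.29 and -1.81, and for RVE4, a relative of RVE8, at -0.45, -0.37 and -0.48. Of the 8 that fell in brm-1 ref6-1, 5 lie under 200 counts per kb, PRR9 at 61.2, LHY at 107, RVE8 at 126, CCA1 at 138 and RVE1 at 151. The other 3, RVE4 at 285, LNK1 at 376 and LNK2 at 416, lie within the range of the evening genes, and LNK1 differed by -0.17, -0.25 and -0.42, passing in ref6-1 and in brm-1 ref6-1. PRR7, at 539 counts per kb, like ELF4 and GI, differed by 0.14, 0.15 and 0.06 and did not pass, while LNK2, close to FKF1 in density, did not pass in brm-1 or ref6-1 and fell by 0.39 in brm-1 ref6-1. PRR7, LNK1 and LNK2 were picked for their density after the values were seen, and no test between the morning and evening lists was made.

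Close relatives of the 9 genes were looked at in the same way. Of 12 evening relatives, 2 fell in brm-1, none passed in ref6-1 with edgeR and 1 fell in brm-1 ref6-1, and none rose in any of these. Of all tested genes, 19% passed in brm-1 (10.1% fell), 7.95% in ref6-1 (5.63% fell) and 31.2% in brm-1 ref6-1 (17.3% fell). Nothing particular to the relatives is read from these counts. ELF4-L1, a relative of ELF4, ranged from 7.51 to 8.26 CPM over the WT libraries, from 0.586 to 0.847 over those of brm-1, from 3.37 to 4.57 over those of ref6-1 and from 0 to 0.963 over those of brm-1 ref6-1. It fell in brm-1 and in brm-1 ref6-1, with log2 differences of -3.37 ± 0.41 and -3.75 ± 0.44 (edgeR, adjusted p = 0.000167 and 7.49e-05), with -1.06 ± 0.33 in ref6-1 (0.0703). Its mean was 36.2 counts per library, so these folds rest on few reads. The ref6-1 difference of ELF4-L1 passed in 5 of 20 alternatives, among them DESeq2, limma-voom and the fit of only the groups compared. ELF4-L3 fell by 0.82 ± 0.22 in brm-1 (edgeR, adjusted p = 0.0213), a call that ended when replicate 1 or 3 was left out, whether of WT or of brm-1 (adjusted p up to 0.0761).

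Around CO, the output of GI and FKF1, log2 differences were larger than in GI and FKF1 themselves, in genes that, SPA1 aside, were counted less densely (CO 52.1, FT 104, CDF2 135, CDF1 171 and SPA1 443 counts per kb). Of 17 genes of photoperiod and light input, 16 were tested, and 3 rose and 5 fell in brm-1, 2 rose and 4 fell in ref6-1, and 4 rose and 7 fell in brm-1 ref6-1, with medians of -0.00, -0.08 and -0.05. Without brm-1 ref6-1 replicate 3 the last pair was 4 and 5. Of all tested genes, 8.88% rose and 10.1% fell in brm-1, 2.33% and 5.63% in ref6-1, and 14% and 17.3% in brm-1 ref6-1. CDF1 and CDF2, repressors of CO that FKF1 marks for degradation, fell, with log2 differences of -0.69, -1.18 and -1.17 for CDF1 and of -0.93, -0.93 and -1.08 for CDF2 in brm-1, in ref6-1 and in brm-1 ref6-1. CO itself stood at 8.18 ± 0.526 CPM in WT (SD, n = 3), against 18.6 ± 2.18 for brm-1, 12.1 ± 1.58 for ref6-1 and 17.3 ± 1.18 for brm-1 ref6-1, and rose by 1.19, 0.56 and 1.08 (edgeR, adjusted p = 6.39e-05, 0.0184 and 7.21e-05). The rise of CO in ref6-1 was lost without WT replicate 1, without ref6-1 replicate 2 and with only these groups in the fit (adjusted p up to 0.0804). FT, the flowering signal that CO activates, rose by 1.29, 1.29 and 1.77. SPA1, a partner of the ubiquitin ligase that degrades CO, fell, at -0.23, -0.28 and -0.28.

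Of the 3 growth genes that the evening complex represses, PIF4 rose in brm-1 by 0.45 ± 0.10 and in brm-1 ref6-1 by 0.42 ± 0.10 (edgeR, adjusted p = 0.00785 and 0.00729), from 75.6 ± 11.8 CPM in WT to 103 ± 10.1 and 101 ± 2.90 (SD, n = 3). PIF5, its close relative, rose by 0.27 ± 0.08 and 0.23 ± 0.08 in these genotypes (adjusted p = 0.0297 and 0.0430). Without WT replicate 1 or 3 both PIF5 calls were lost, the one in brm-1 also without replicate 2 or 3 of that genotype (adjusted p up to 0.108), and the one in brm-1 ref6-1 also on leaving out any 1 library of brm-1 or of brm-1 ref6-1 (adjusted p up to 0.128). With only the groups compared in the fit neither passed. HB-2, a shade-response factor, fell in brm-1 ref6-1 by 0.41 ± 0.11 (edgeR, adjusted p = 0.0129), a call lost without replicate 3 of that genotype (-0.31, adjusted p = 0.0510). In ref6-1 none of the 3 passed with edgeR, and PIF4 stood at 0.29 (adjusted p = 0.0915). That PIF4 difference passed with DESeq2 and without WT replicate 2. Of all tested genes, 8.88% rose in brm-1, and 14% rose and 17.3% fell in brm-1 ref6-1. In ref6-1 7.95% passed, and at that share nothing is read from the lack of calls there.

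**Figure D5:**
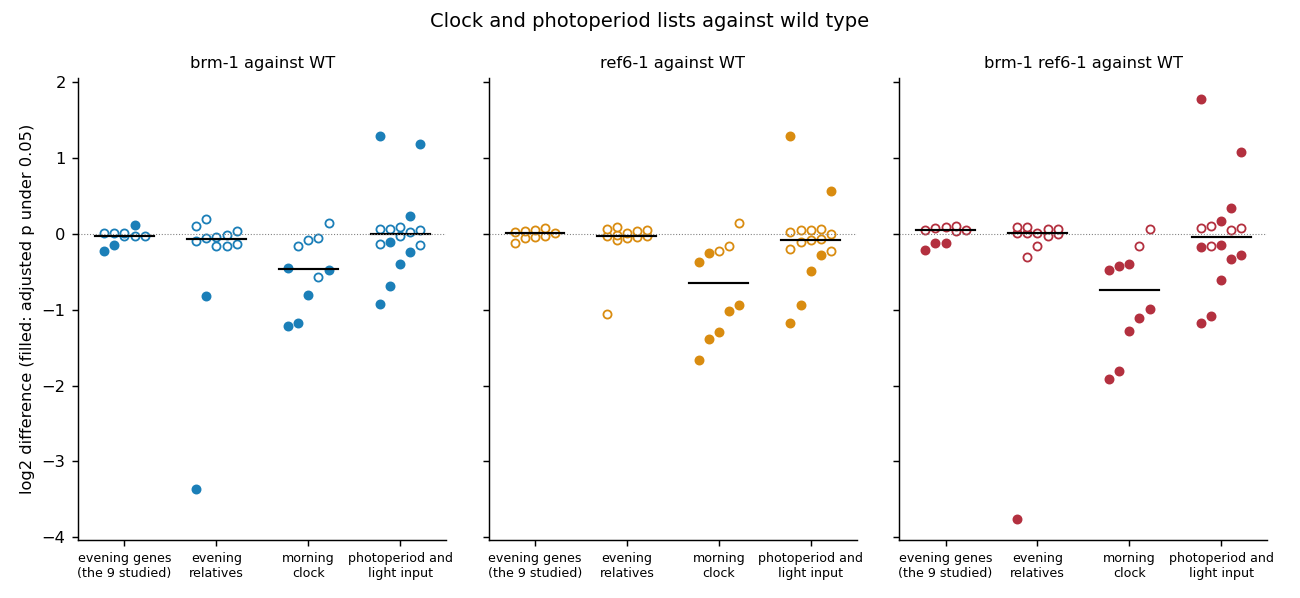
Log2 difference from WT (vertical axis) of the 9 evening genes, 12 evening relatives, 10 morning clock genes and 16 tested genes of photoperiod and light input in brm-1, in ref6-1 and in brm-1 ref6-1; filled points passed edgeR's test at an adjusted p under 0.05, open points did not, and black lines are list medians. The evening genes cluster at 0, the morning medians lie at -0.46, -0.65 and -0.74, and the lowest relative is ELF4-L1.

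By likeness of log2 CPM over the 12 libraries, among 9038 genes with a symbol and at least 2 CPM, the nearest to PRR5 were HIPP25, BPS2 and GLK2 (Pearson r = 0.918, 0.915 and 0.911). The nearest to PRR3 were TT4, FBL17 and YAB5 (0.929, 0.902 and 0.898), to GI TBL42, SR34b and COR413IM1 (0.922, 0.913 and 0.902), and to FKF1 AAE14, XK-1 and PIN4 (0.948, 0.923 and 0.916). None of the evening genes was among the 3 nearest of these 4, and the other 5 were not searched. Between members the highest r was 0.69, for ELF4 with ZTL, and the lowest -0.64, for LUX with PRR5. These values describe 12 libraries that share depth, scaling and genotype groups, and the highest of so many r values are high by selection.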

How the data were processed

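Whole seedlings were profiled as 12 paired-end RNA-seq libraries (TruSeq, total RNA, per the labels' protocols). The deposited values are whole-number counts of reads per locus that the authors made, with TopHat2 and the TAIR10 build, per the submitters' processing notes. The counting tool, strand setting, duplicate handling and annotation were not given in the labels or notes. Groups and replicate numbers come from the sample titles. Replicates differed by more than counting noise and were all kept. The members and gene lists were chosen with earlier results of these data known.

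Counts were analysed in R 4.3.3 with edgeR 4.0.16: filterByExpr by genotype, TMM scaling, 1 fit of all 12 libraries with 1 mean per genotype, robust quasi-likelihood F tests, two-sided, with Benjamini-Hochberg adjustment over the 22076 genes tested and a threshold of 0.05. CPM values use TMM-scaled library sizes. SEs follow from the F statistic. For ELF4, LUX and ZTL, which vary less than counting noise, edgeR bounds the p-value by that of Poisson counts, and SE and interval follow from that p-value. P-values measure the spread between these libraries, which may be partly technical. DESeq2 1.42.0 and limma 3.58.1 (voom), other scalings, other filters, the replicate block and leaving out each library were alternatives. The scripts were checked on simulated counts.

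Named were all 9 members in every comparison. Of each other list, up to 3 passing genes with the lowest adjusted p in each comparison with WT were named, and of each member that passed against WT the 3 genes most like it (log2 CPM, prior count 2). Genes named beyond that rule were chosen after their values were seen. Gene positions, lengths and upstream sequence are from the RefSeq annotation of TAIR10.1, which gave models for 28924 of the 29420 loci. The density bins were chosen after seeing the data.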

Additional observations from a re-analysis of the deposited data

Results flagged for a closer look

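By the interaction on the log2 scale, the effect of ref6-1 differed between brm-1 and WT for 4 genes of the clock and photoperiod lists and for 1 flower marker. Over all tested genes 0.245% passed. None of the 9 evening genes did, and at that share nothing is read from their absence. RVE1 gave 0.95 ± 0.16 (SE; edgeR, adjusted p = 0.0320), CDF2 0.78 ± 0.13 (0.0320), CDF1 0.69 ± 0.12 (0.0430) and SPA1 0.24 ± 0.04 (0.0320), so that in these 4 the fall in brm-1 ref6-1 was smaller than the sum of the falls in brm-1 and ref6-1. SEP3, a flower identity gene, gave -1.21 ± 0.17 (0.0148), a rise in brm-1 ref6-1 smaller than the sum of its rises. These interactions were not stable calls: of 19 alternatives, RVE1 was lost in 10, CDF1 in 13, CDF2 in 9, SPA1 in 10 and SEP3 in 2, most of them fits with 1 library left out, and none changed sign.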

How the results depend on the processing

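Of 1251 values of the 9 genes under other settings, 1204 kept their direction and their side of the threshold, 27 lost a call, 4 gained one and 16 changed sign, all 16 of them differences that did not pass. The number of members passing was 1 with DESeq2 in brm-1 against WT. It was 1 with only the groups compared and with limma-voom in ref6-1 against WT, and 0 with DESeq2 in brm-1 against ref6-1. Leaving out each library in turn gave 1 to 3 members in brm-1, 0 to 1 in ref6-1, 1 to 3 in brm-1 ref6-1 and 0 to 1 in brm-1 against ref6-1. For brm-1 against ref6-1, ELF4 turned to -0.00879 and GI to -0.00248 with upper-quartile scaling, and ELF4 to -0.00280 with no filter and -0.00186 with at least 1 CPM in 6 libraries. Fits without 1 library moved some log2 differences across 0: in brm-1 against WT TOC1 (-0.0516 to 0.0154), ELF4 (-0.0146 to 0.0305) and GI (-0.0462 to 0.00179), in ref6-1 against WT ELF4 (-0.0148 to 0.0308) and the relative ELF4-L3 (-0.165 to 0.0587), in brm-1 ref6-1 against ref6-1 FKF1 (-0.0496 to 0.00570), in brm-1 against ref6-1 ELF4 (-0.0203 to 0.0197) and GI (-0.0122 to 0.0334), and in the interaction LUX (-0.00252 to 0.0281). The ranges in brackets run over all alternative settings, not over the fits without 1 library alone. The cause of the sign changes was not tested. Other scalings moved the median of all genes by at most 0.0147. At an adjusted p under 0.01 the share of genes passing fell from 19% to 9.68% in brm-1, from 7.95% to 2.82% in ref6-1 and from 31.2% to 17.4% in brm-1 ref6-1.

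With the replicate number as a block, 3, 0 and 3 members passed in brm-1, in ref6-1 and in brm-1 ref6-1, as without it, and over all genes 4437, 2023 and 7196 passed in place of 4193, 1756 and 6897. Whether the numbers pair the libraries is not known. Of 18 pairs with the same number, 6 had a correlation of deviations above 0.1 (from -0.22 to 0.37), and pairs with different numbers ran from -0.39 to 0.34. The highest correlation was with a library of the same number for 6 of the 12 libraries. No library had its own number as the best match in every other genotype. With 3 libraries per genotype and means of 352 to 2157 counts per gene, the SE of a member's log2 difference from WT was 0.03 to 0.07.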
